A study of Mus musculus with 12 samples.

Results

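The transcripts of 31 genes of the nuclear pore complex were followed in mouse oocytes with and without Zar1 and Zar2. The members were taken by name as the rows of these 31 genes among the 23230 genes of the expression table. Of the 31 genes, 30 reached 1 FPKM (a read level corrected for transcript length and for library depth) in at least 1 library and were tested among 11502 genes that did. The remaining gene, Nup210, stayed under 1 FPKM in all 12 libraries and was not tested. Oocytes of wild-type (WT) and Zar1/2-null females on a C57BL6/ICR hybrid background were sampled as growing oocytes of 13.5-day-old females, as fully grown germinal vesicle (GV) oocytes of 21-day-old females 44 h after PMSG, and as ovulated MII oocytes 16 h after hCG. Each of the 6 groups had 2 libraries, and each library was made from 10 oocytes. The null mice carried CRISPR/Cas9 deletions in both Zar1 and Zar2 in all tissues, so that the follicle around the oocyte lacked both genes as well. The MII label is the time of collection after hCG. The study described ovulated null oocytes as arrested in metaphase I or telophase I. Meiotic stage and genotype therefore cannot be told apart in the MII comparison of these data. In oocytes held in meiosis I by nocodazole, the study reported by RT-qPCR that decay of selected mRNAs was unaffected.

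The nuclear pore complex is the gated channel through the nuclear envelope. It is built from scaffold rings, an outer ring of Y-shaped complexes and an inner ring, which hold a central channel lined with phenylalanine-glycine (FG) repeats. Membrane proteins anchor it, a basket of filaments hangs into the nucleus, and the cytoplasmic face carries filaments where exported mRNA is released. The GV of a fully grown oocyte is a large nucleus with intact pores. At GV breakdown the envelope and its pores come apart, and the pores are built anew from maternal subunits when pronuclei form after fertilization. Maternal mRNAs are stored during growth, and during maturation many are translated or degraded under the control of elements in the 3' untranslated region (3' UTR), among them the cytoplasmic polyadenylation element (CPE).

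CPE letters in the 3' UTRs are shown for Nup37, the member with the largest share left after WT maturation, for Nup43 and Nup133, which were among the 3 with the smallest share, and for some members that differed between genotypes at MII. Rangap1, with the smallest share, held no motif in a UTR of 941 bases. The motifs searched were TTTTAT and TTTTAAT, on the transcript strand of the longest coding transcript of each gene (GENCODE M1 on mm9, the build of the expression table). Among the members with an annotated 3' UTR of at least 100 bases, 21 of 27 held a motif (77.8%), against 60.4% of 9779 tested genes. Within the last 100 bases, 8 of 27 members held one (29.6%), against 19.97% of the tested genes. The 27 members include Nup210, which was not tested for expression. The median GC content of these UTRs was 38.2% in the members and 43.7% in the tested genes, and its part in the motif shares was not tested. The following 28-base windows hold the motif closest to the UTR end, in capitals.
Nup37, chr10:87641047-87641074, plus strand: aaatccttatTTTTATatcaaacatact
Nup43, chr10:7398611-7398638, plus strand: gttatcaaaaTTTTATcaccagaaagtg
Nup133, chr8:126421589-126421616, minus strand: ggttttgttgTTTTATtctcttgactgg
Rae1, chr2:172841146-172841173, plus strand: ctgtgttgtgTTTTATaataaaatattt
Nup62, chr7:52086082-52086109, plus strand: gtcatgtctaTTTTATttctctgcactc
Gle1, chr2:29814876-29814903, plus strand: ggcttaagcaTTTTAATtgtggactaga
Nup155, chr15:8109788-8109815, plus strand: atattaatggTTTTATgcatttatactt
Nup50, chr15:84771711-84771738, plus strand: cctggttaacTTTTATtttcacatgggt
In Nup37 the motif was followed by 71 bases to the UTR end, in Nup43 by 53, in Nup155 by 54, in Rae1 by 79 and in Nup62 by 82 bases. In Nup133 it was followed by 578, in Gle1 by 999 and in Nup50 by 1659 bases. Nup85 and Nup93 held no motif in UTRs of 163 and 371 bases. Aaas has an annotated 3' UTR of only 34 bases, without a motif. These matches describe the letters in the annotated UTR and are not evidence of use.

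The authors scaled each library by its share of ERCC spike-in RNA, so that an FPKM value tracks the amount of a transcript in 10 oocytes relative to the WT growing library of the same replicate number. The factor, inferred here from the rounding of the values, was 0.697 to 0.836 in WT GV and 0.225 to 0.228 in WT MII libraries. It was 0.779 to 0.862 in null growing, 0.533 to 0.583 in null GV and 0.252 to 0.283 in null MII libraries. Zar2, listed as Zar1l, was at 642 FPKM in WT and 15.3 FPKM in null growing oocytes, at 519 and 20.3 FPKM at GV, and at 3.92 and 1.19 FPKM at MII. Zar1 RNA was still present, with 664 FPKM in WT and 433 FPKM in null growing oocytes; its null allele is a short deletion followed by a stop codon. All 10 oocyte markers reached 1 FPKM in every group except Figla in WT MII oocytes. The 13 granulosa and cumulus markers summed to 24.5 to 29.5 FPKM in WT growing, 6.43 to 11.6 in null growing, 13.5 to 15.7 in WT GV, 11.4 to 13.1 in null GV, 4.20 to 4.32 in WT MII and 6.04 to 7.23 FPKM in null MII oocytes. Cyp19a1 was the highest of them in every group, whereas Amh, Foxl2, Hsd17b1, Has2 and 4 others were under 1 FPKM in WT growing oocytes. The 5 listed immune markers summed to at most 3.18 FPKM, and of the 5 epithelial markers only Cdh1, which oocytes express, reached 1 FPKM.

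Nucleoporin transcripts differed by more than 2 orders of magnitude in FPKM, a value per transcript length. Libraries were primed with oligo-dT, and the part of transcript length in these differences was not tested. Annotated transcripts of Nup37, Nup43, Sec13 and Nup35 have 1283, 1286, 1348 and 1559 bases. Those of Nup133, Nup155 and Nup205 have 5808, 6402 and 6381, and those of Rangap1 and Nupl2 have 2954 and 2914. In WT GV oocytes the highest were Sec13 (188 ± 29.4 FPKM, SD), which also serves in COPII vesicle coats, and Nup35 (173 ± 48.0 FPKM), an inner ring protein. These were followed by Nup37 (115 ± 17.9 FPKM) and Nup43 (109 ± 22.7 FPKM), small beta-propeller proteins of the outer ring. The libraries of Sec13 and Nup35 overlapped, as did those of Nup37 and Nup43, so that the order within each pair was not beyond the spread, whereas both Nup35 libraries (207 and 139 FPKM) lay above both Nup37 libraries (128 and 102 FPKM). Sec13 was higher than 95.2% and Nup35 higher than 94.8% of the tested genes. The subunits of 1 complex had unequal FPKM. In the outer ring, Nup133 was at 3.79 ± 0.40 FPKM and Nup160 at 15.1 ± 1.43 FPKM against 188 FPKM for Sec13. In the inner ring, Nup155 (4.57 ± 0.23 FPKM) and Nup205 (4.33 ± 0.10 FPKM), the large scaffold proteins, were far below Nup35. The lowest were Rangap1 (1.38 ± 0.17 FPKM), the GTPase-activating protein of Ran, Nupl2 (1.18 ± 0.22 FPKM) and Nup210 (0.321 ± 0.04 FPKM), the large membrane glycoprotein of the pore.

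**Figure D1:**
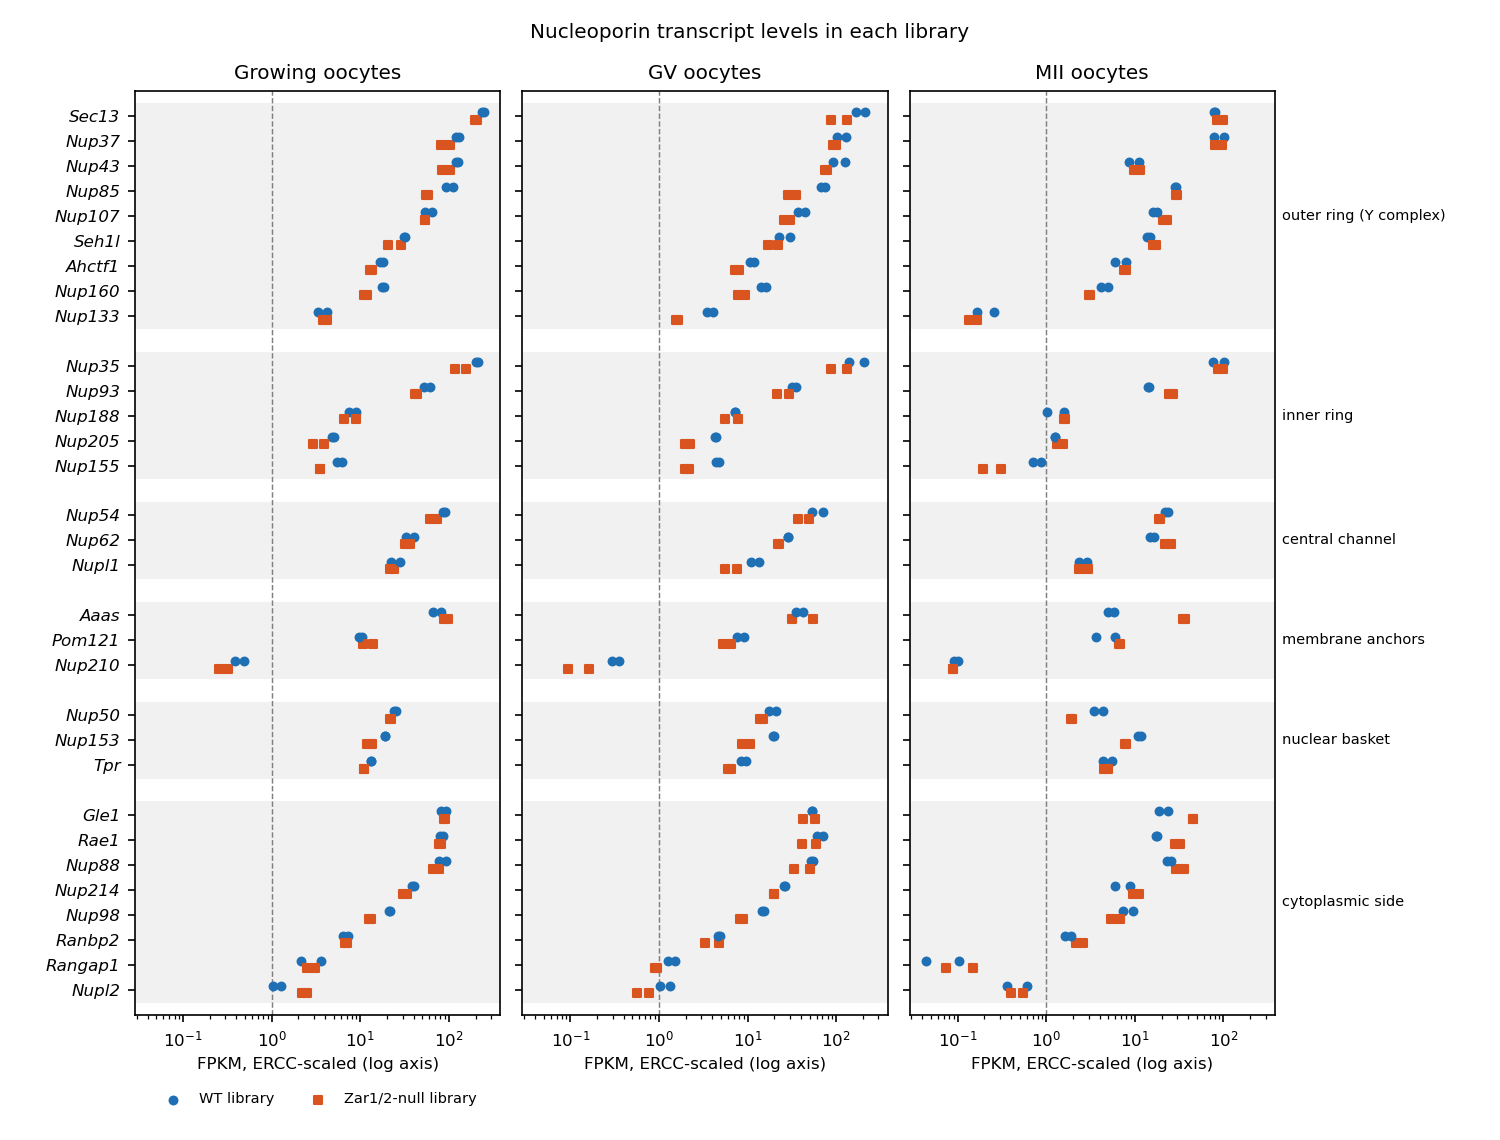
FPKM (ERCC-scaled, log axis) of the 31 nucleoporin genes in each of the 12 libraries, by stage and structural group, with WT libraries as blue circles and null libraries as orange squares and the dashed line at 1 FPKM. By group mean Sec13 and Nup35 are the highest of their rings in growing and GV oocytes, although Nup37 (92.2 FPKM) lies above Sec13 (87.4 FPKM) in null GV replicate 1. Nup210 stays under 1 FPKM in every library, and the widest gap between genotypes is that of Aaas in MII oocytes.

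The comparison of growing oocytes asked whether loss of ZAR1/2 changed the stored transcripts before growth was complete. In null growing oocytes 6 of 30 nucleoporin transcripts were lower and 1 was higher (limma on log2(FPKM + 1), Benjamini-Hochberg adjusted p under 0.05). Over all tested genes 24.4% were lower and 10.6% higher, and the median log2 difference was -0.26 for the members and -0.16 for all genes. The lower transcripts were Nup85, Nup160, Nup155, Nup205, Nup153 and Nup98, that is, scaffold subunits of both rings, a basket protein and an FG protein that binds the export factor Rae1. With 10 oocytes in each library, fewer recovered oocytes and less RNA per oocyte cannot be told apart.

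Nup85 (chr11:115425748-115445299, plus strand), an arm subunit of the Y complex, was at 92.2 and 111 FPKM in WT and at 58.1 and 55.6 FPKM in null growing oocytes. Both null libraries lay well below both WT libraries, with a log2 difference of -0.82 ± 0.15 (SE, adjusted p = 0.00211). Nup160, which with Nup37 forms another arm of the Y complex, was at 18.8 and 17.6 FPKM in WT and 11.9 and 10.9 FPKM in null oocytes (log2 difference -0.63 ± 0.15, adjusted p = 0.00665). Nup155, an inner ring scaffold protein, was at 6.14 and 5.50 FPKM in WT and 3.50 and 3.54 FPKM in null oocytes (-0.59 ± 0.12, adjusted p = 0.00384). For Nup98, whose precursor is cleaved into NUP98 and the Y complex subunit NUP96, values were 21.4 and 21.0 against 12.5 and 13.4 FPKM (-0.67 ± 0.16, adjusted p = 0.00726). Over all members the groups were apart, with the null lower, for 19 of 30 and, with the null higher, for 3, against 47.4% and 22.4% of tested genes. None of the groups given here overlapped, and neither did those of Nup153 (18.8 and 19.0 against 11.96 and 13.4 FPKM) and Nup205 (4.79 and 5.01 against 2.96 and 3.85 FPKM). With the ERCC factors removed, Nup85 alone of these 6 was still called lower (log2 difference -0.54).

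Nupl2, which binds the cytoplasmic face of the pore, was the only member that was higher in null growing oocytes. It was at 1.28 and 1.03 FPKM in WT and 2.49 and 2.196 FPKM in null oocytes, with a log2 difference of 0.63 ± 0.14 (adjusted p = 0.00558), at a level just above the filter of 1 FPKM. The most abundant members were not called. Sec13 was at 248 and 239 FPKM in WT and 208 and 195 FPKM in null oocytes (-0.27 ± 0.20, adjusted p = 0.313). For Nup35, with 215 and 205 against 156 and 119 FPKM, the difference of -0.62 ± 0.25 missed the threshold (adjusted p = 0.0756). In the other groups Nup54 (90.6 and 86.5 against 73.8 and 61.1 FPKM), Nup50 (24.2 and 25.1 against 21.5 and 22.1 FPKM), Gle1 (80.9 and 92.8 against 89.1 and 89.5 FPKM) and Aaas (66.0 and 81.7 against 97.6 and 87.6 FPKM) were not called either. Granulosa markers were lower in null growing libraries, as given above, and their part in these differences was not tested.

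In null GV oocytes 15 of 30 nucleoporin transcripts were lower and none was higher, against 40.6% and 2.83% of all tested genes. The 2 null libraries lay below both WT libraries for 26 of 30 members and above them for 0, against 63.6% and 6.79% of tested genes, and the median log2 difference was -0.46 against -0.38 over all genes. By structure, 6 of 9 outer ring, 2 of 5 inner ring, 2 of 3 central channel, 3 of 3 basket and 2 of 8 cytoplasmic genes were lower, and neither of the 2 membrane-associated genes tested, Pom121 and Aaas. These counts depended on the scaling: 4 members were lower without the ERCC factors, against 13.5% of tested genes, and 2 were lower and 1 higher when libraries were scaled to equal medians, against 10.3% and 9.97%.

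Nup85 again showed the largest difference, with 74.5 and 67.6 FPKM in WT and 28.3 and 35.3 FPKM in null GV oocytes. The log2 difference was -1.14 ± 0.15 (adjusted p = 0.00027), and it was called under all 21 alternatives. Nup133, at the stem of the Y complex, was at 4.08 and 3.51 FPKM in WT and 1.64 and 1.56 FPKM in null oocytes (-0.88 ± 0.13, adjusted p = 0.00052), and it too was called under each alternative that tested it. In growing oocytes the groups of Nup133 overlapped (3.34 and 4.26 against 3.79 and 4.19 FPKM), and the change in the difference between the stages was itself significant (-0.94 ± 0.19, adjusted p = 0.0109). On values without the factors this change missed the threshold (adjusted p = 0.0567).

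Nup153, a basket FG protein that docks transport receptors and chromatin, was at 19.99 and 19.5 FPKM in WT and 10.6 and 8.69 FPKM in null GV oocytes (-0.97 ± 0.14, adjusted p = 0.000344). Nup155 was at 4.73 and 4.41 against 2.15 and 1.97 FPKM (-0.86 ± 0.12, adjusted p = 0.00037). Both stayed lower without the ERCC factors (log2 differences of -0.56 and -0.57). After median scaling both missed the threshold in limma (adjusted p = 0.0724 for Nup153 and 0.0515 for Nup155). Sec13 was at 209 and 167 FPKM in WT and 87.4 and 132 FPKM in null oocytes (-0.80 ± 0.20, adjusted p = 0.00803), which no longer passed once the ERCC factors were removed (adjusted p = 0.114). The other lower members were Nup205, Nup160, Nup98, Nupl1 (the channel protein also called NUP58), Nup107, Nup54, Ahctf1 (ELYS, which seeds pores on chromatin), Tpr, Nup50 and Nupl2, with log2 differences between -0.80 and -0.39. Of these, Nup50, Nupl2 and Nup54 were close to the threshold, with adjusted p = 0.0489, 0.0467 and 0.0433. None of these other members was called lower without the ERCC factors or after median scaling. Nup107, Nup54, Ahctf1, Tpr and Nup50 changed sign after median scaling.

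Several members did not pass at GV. Aaas was at 42.8 and 35.6 FPKM in WT and 32.0 and 54.9 FPKM in null oocytes, so that the groups overlapped. Gle1 likewise overlapped (53.8 and 53.6 against 42.6 and 57.2 FPKM). Nup35 was at 207 and 139 against 87.5 and 134 FPKM and missed the threshold (adjusted p = 0.0587). Over the members, the null GV libraries were less alike than those of other groups. The median absolute log2 difference between the 2 libraries was 0.25, against 0.12 to 0.17 in the other 5 groups. Over all tested genes it was 0.21 in null GV, 0.20 in WT GV, 0.19 in null growing, 0.15 in WT growing and 0.12 in each MII group. In WT GV, 26 of 30 members were higher in the first library, whose ERCC factor was 0.836 against 0.697 in the second. Without the factors the FPKM values of these libraries summed to 690397 and 689407. Without WT GV replicate 1, only 7 members were called lower at GV.

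**Figure D2:**
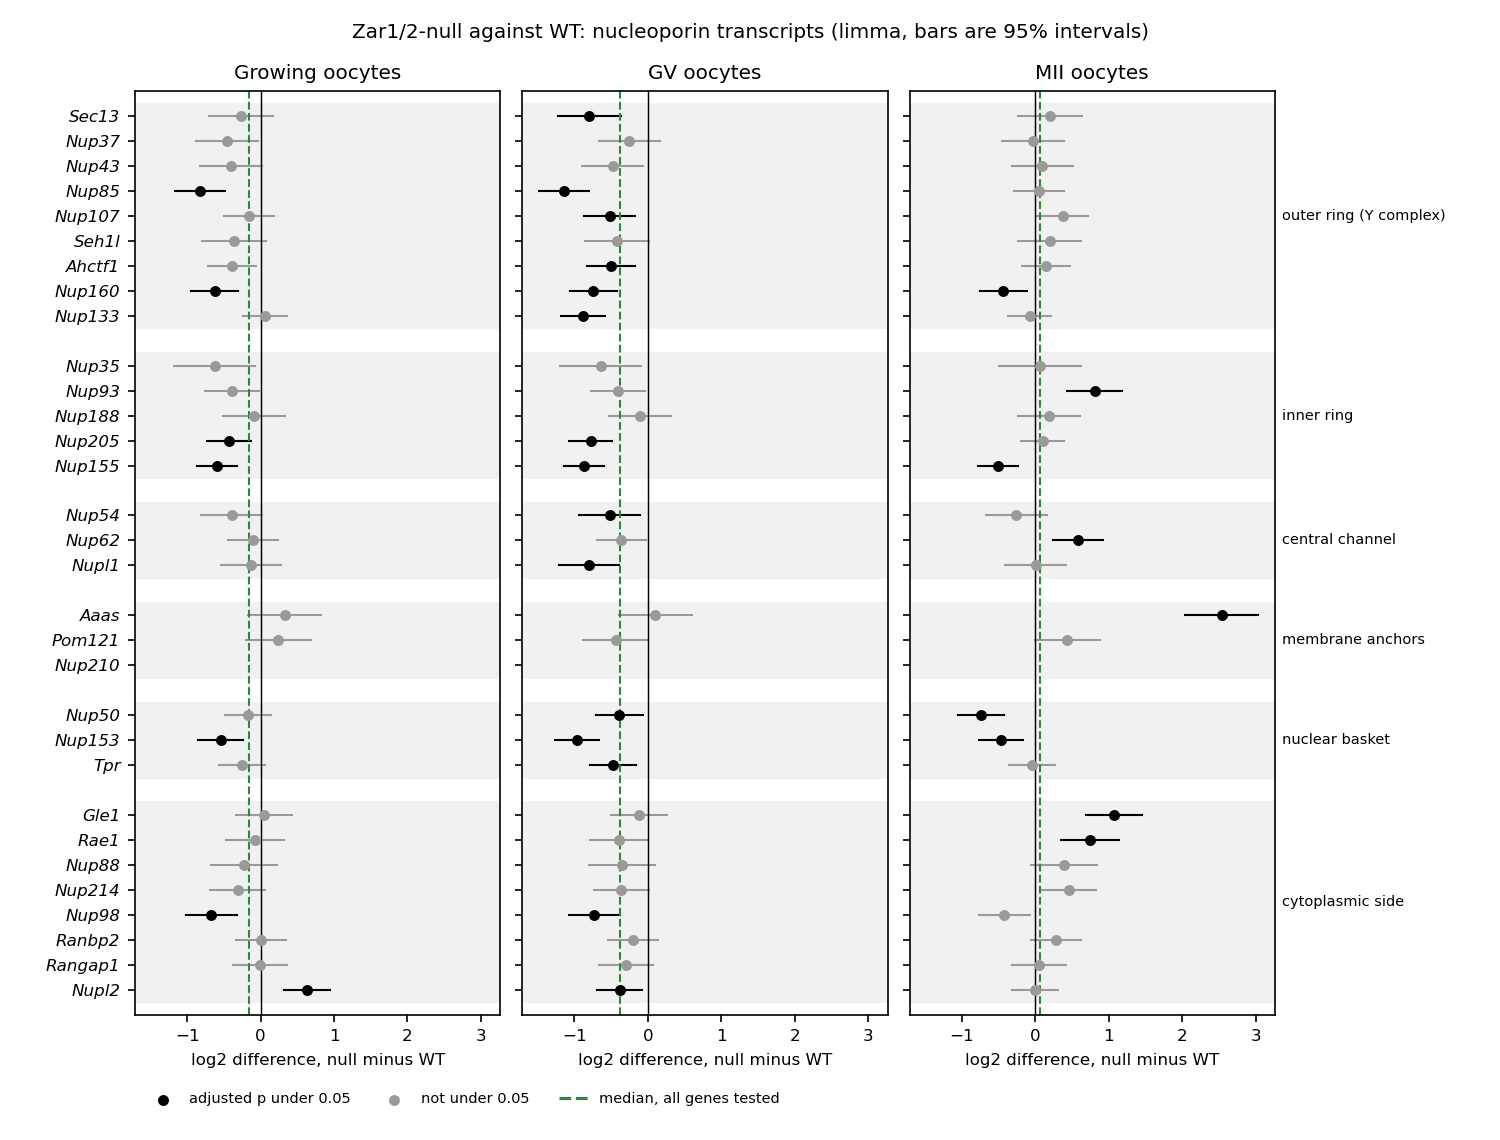
Log2 difference (null minus WT, limma on log2(FPKM + 1)) of each nucleoporin gene in growing, GV and MII oocytes with 95% intervals; black points are called at an adjusted p under 0.05 and the green dashed line is the median of all tested genes. At GV 15 of 30 members are called lower, and at MII Aaas stands apart at 2.54.

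At MII the members went both ways. In null oocytes 5 of 30 were higher (Aaas, Gle1, Nup93, Rae1 and Nup62) and 4 were lower (Nup50, Nup155, Nup153 and Nup160), against 21.5% and 10.3% of all tested genes, with a median log2 difference of 0.10 for the members and 0.06 for all genes. The groups did not overlap for 14 members that were higher and 7 that were lower, against 43.5% and 27.8% of tested genes. Without the ERCC factors 4 members were higher and 6 lower, against 24.6% and 23.4% of tested genes, and after median scaling also 4 and 6, against 25.2% and 24.7%. The 4 lower transcripts were also lower at GV, and 3 of them already in growing oocytes. Without null MII replicate 2, only 3 members were called higher and 1 lower, without WT MII replicate 2 only 1 was lower, and without null MII replicate 1 only 2 were lower.

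Aaas (chr15:102168678-102181190, minus strand) encodes aladin, the pore protein altered in triple A syndrome, which NDC1 holds at the membrane. It was at 4.96 and 5.75 FPKM in WT MII oocytes and at 35.1 and 36.7 FPKM in null MII oocytes. The null mean was 6.70-fold the WT mean and the log2 difference was 2.54 ± 0.23 (adjusted p = 5.4e-06), which puts both null libraries far above both WT libraries. It was the only one of the 31 genes that passed the study's 3-fold rule at any stage (group means set to at least 1 FPKM), a rule that 7.49% of tested genes passed upward and 1.32% downward at MII. At the earlier stages 0.982% and 3.54% of tested genes passed it in growing and 0.461% and 4.2% in GV oocytes, upward and downward, and 0 of the members. On unscaled values the log2 difference was 2.46.

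Gle1 (chr2:29790946-29815891, plus strand), which activates the DEAD-box helicase that strips export receptors from mRNA at the cytoplasmic face, was at 18.6 and 23.7 FPKM in WT and 45.0 and 45.5 FPKM in null MII oocytes. The log2 difference was 1.07 ± 0.17 (adjusted p = 0.000581). Nup93 (chr8:96738497-96838966, plus strand), which links the inner ring to the central channel, was at 14.1 and 14.3 FPKM in WT and 24.03 and 27.2 FPKM in null oocytes (0.81 ± 0.17, adjusted p = 0.00322). For Rae1, an mRNA export factor that also binds the spindle, values were 17.9 and 17.5 against 28.7 and 32.2 FPKM (0.75 ± 0.18, adjusted p = 0.0074), and the call was lost without null MII replicate 2 (adjusted p = 0.0556). Nup62, the central FG protein of the channel, was at 14.6 and 16.4 against 21.8 and 25.7 FPKM (0.58 ± 0.15, adjusted p = 0.0129), but it was not called without the ERCC factors (adjusted p = 0.113). Aaas, Gle1 and Nup93 kept their calls under all 21 alternatives.

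Nup50 (chr15:84753831-84773385, plus strand), a mobile basket protein that helps to unload importin, showed the opposite difference. It was at 3.44 and 4.40 FPKM in WT MII and at 1.92 and 1.95 FPKM in null MII oocytes, with no overlap and a log2 difference of -0.74 ± 0.14 (adjusted p = 0.00212), which was called under all 21 alternatives. Nup155 was at 0.699 and 0.866 FPKM in WT and 0.308 and 0.193 FPKM in null oocytes (-0.51 ± 0.12, adjusted p = 0.00801), all under 1 FPKM. Nup153 was at 11.6 and 10.8 against 7.87 and 7.81 FPKM (-0.46 ± 0.14, adjusted p = 0.0235), and Nup160 at 4.11 and 4.95 against 3.13 and 3.02 FPKM (-0.44 ± 0.15, adjusted p = 0.0397). The last 3 calls were each lost when single MII libraries were left out, with adjusted p up to 0.0795 for Nup155, 0.119 for Nup153 and 0.227 for Nup160.

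The most abundant scaffold genes did not pass at MII. Sec13 was at 80.9 and 78.9 FPKM in WT and 99.0 and 85.2 FPKM in null oocytes (0.20 ± 0.20, adjusted p = 0.523). Nup35 was at 102 and 77.1 against 98.6 and 86.9 FPKM, with overlapping groups. Nup54 was at 21.8 and 23.7 against 19.0 and 18.7 FPKM (-0.26 ± 0.19, adjusted p = 0.355). Nup85, which led the lower transcripts in growing and GV oocytes, was at 28.3 and 28.8 FPKM in WT and 29.5 and 29.7 FPKM in null MII oocytes, a log2 difference of 0.05 ± 0.15.

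From growing to GV oocytes in WT, 13 of 30 members were lower and none higher, against 28.7% and 2.77% of tested genes, and the median log2 difference was -0.36 against -0.29 over all genes. The libraries of the stages were apart for 24 members that were lower at GV and 1 that was higher, against 59.5% and 10.2% of tested genes. Of the cytoplasmic genes 6 of 8 were lower. Nupl1 was at 22.4 and 28.2 FPKM in growing and 13.5 and 10.9 FPKM in GV oocytes (-0.99 ± 0.19, adjusted p = 0.00429). For Aaas the values were 66.0 and 81.7 against 42.8 and 35.6 FPKM (-0.90 ± 0.23, adjusted p = 0.0151). Nup93 was at 51.8 and 61.1 against 34.9 and 31.9 FPKM (-0.74 ± 0.17, adjusted p = 0.00986), Rangap1 at 2.17 and 3.59 against 1.501 and 1.26 FPKM (-0.68 ± 0.17, adjusted p = 0.0133), and Gle1 at 80.9 and 92.8 against 53.8 and 53.6 FPKM (-0.68 ± 0.17, adjusted p = 0.0154). None of the 13 was called without the ERCC factors or after median scaling. Only 1 was called without WT growing replicate 2 or without WT GV replicate 2, and 7 were called without WT growing replicate 1.

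During WT maturation, from GV to MII, the ERCC-scaled values of 29 of 30 members were lower, against 93.4% of tested genes; the median log2 difference was -1.22 for the members and -1.28 for all genes. Both MII libraries lay below both GV libraries for 30 of 30 members, against 97.1% of tested genes. This direction rests on the spike-in scaling, since without the ERCC factors 14 members were higher and 7 lower, against 19.7% and 47.6% of tested genes, and after median scaling 22 were higher and 4 lower, against 34.0% and 37.3%. Read as a share of the GV mean, 28 members with at least 1 FPKM at GV in both genotypes kept a median of 39.8% at MII, against 19.1% over the 8951 tested genes with such levels. Without the ERCC factors these medians were 134% and 64.6%. On the log2(FPKM + 1) scale, which compresses changes of low genes, the members exceeded the all-gene median by 0.06 with the ERCC factors, by 0.78 without them and by 0.96 after median scaling.

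Members differed widely in how much was left. Nup37 was the best kept, with 128 and 102 FPKM at GV and 102 and 77.3 FPKM at MII, or 78.0% of its GV mean, and it was the only member not called (log2 difference -0.36 ± 0.19, adjusted p = 0.0888). Nup43 had a similar level at GV, 125 and 92.5 FPKM, but 11.2 and 8.50 FPKM at MII, or 9.06% (-3.33 ± 0.19, adjusted p = 1.81e-08). Nup37 and Nup43 are both beta-propellers on the same Y complex, and the UTR of each holds a TTTTAT motif in its last 100 bases, in the windows shown above. With group means set to at least 1 FPKM, Nup43 was the only member with a more than 10-fold decline (11.04-fold), and with a floor of 0.1 FPKM 3 members passed. This is a rule that 15.7% of tested genes passed in WT and 6.66% in the null, there with 0 members. Nup43 did not pass without WT GV replicate 1 or without WT MII replicate 2.

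Other members were reduced to a small share. Nup133 went from 4.08 and 3.51 to 0.164 and 0.260 FPKM, leaving 5.58% of the GV mean (-1.98 ± 0.13, adjusted p = 7.19e-08), and Rangap1 left 5.35% of a low GV level. Aaas went from 42.8 and 35.6 to 4.96 and 5.75 FPKM, leaving 13.7% (-2.66 ± 0.23, adjusted p = 5.17e-07). Nup155 left 17.1%, Nup188 18.2% and Nup50 20.5%, the last with 20.7 and 17.6 FPKM at GV and 3.44 and 4.40 FPKM at MII (-2.04 ± 0.14, adjusted p = 1.05e-07). Nup43, Nup133, Aaas and Rangap1 were lower under every scaling, without the ERCC factors and after median scaling included. At the other end Ahctf1 kept 62.6%, Pom121 57.6%, Nup98 and Nup153 56.6% each and Tpr 54.6%. Sec13 kept 42.4% (209 and 167 to 80.9 and 78.9 FPKM), Nup35 51.7% (207 and 139 to 102 and 77.1 FPKM), Nup54 36.5% (71.0 and 53.6 to 21.8 and 23.7 FPKM) and Gle1 39.3% (53.8 and 53.6 to 18.6 and 23.7 FPKM), all called lower with the ERCC factors, whereas Sec13 and Nup35 were called higher without them.

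**Figure D3:**
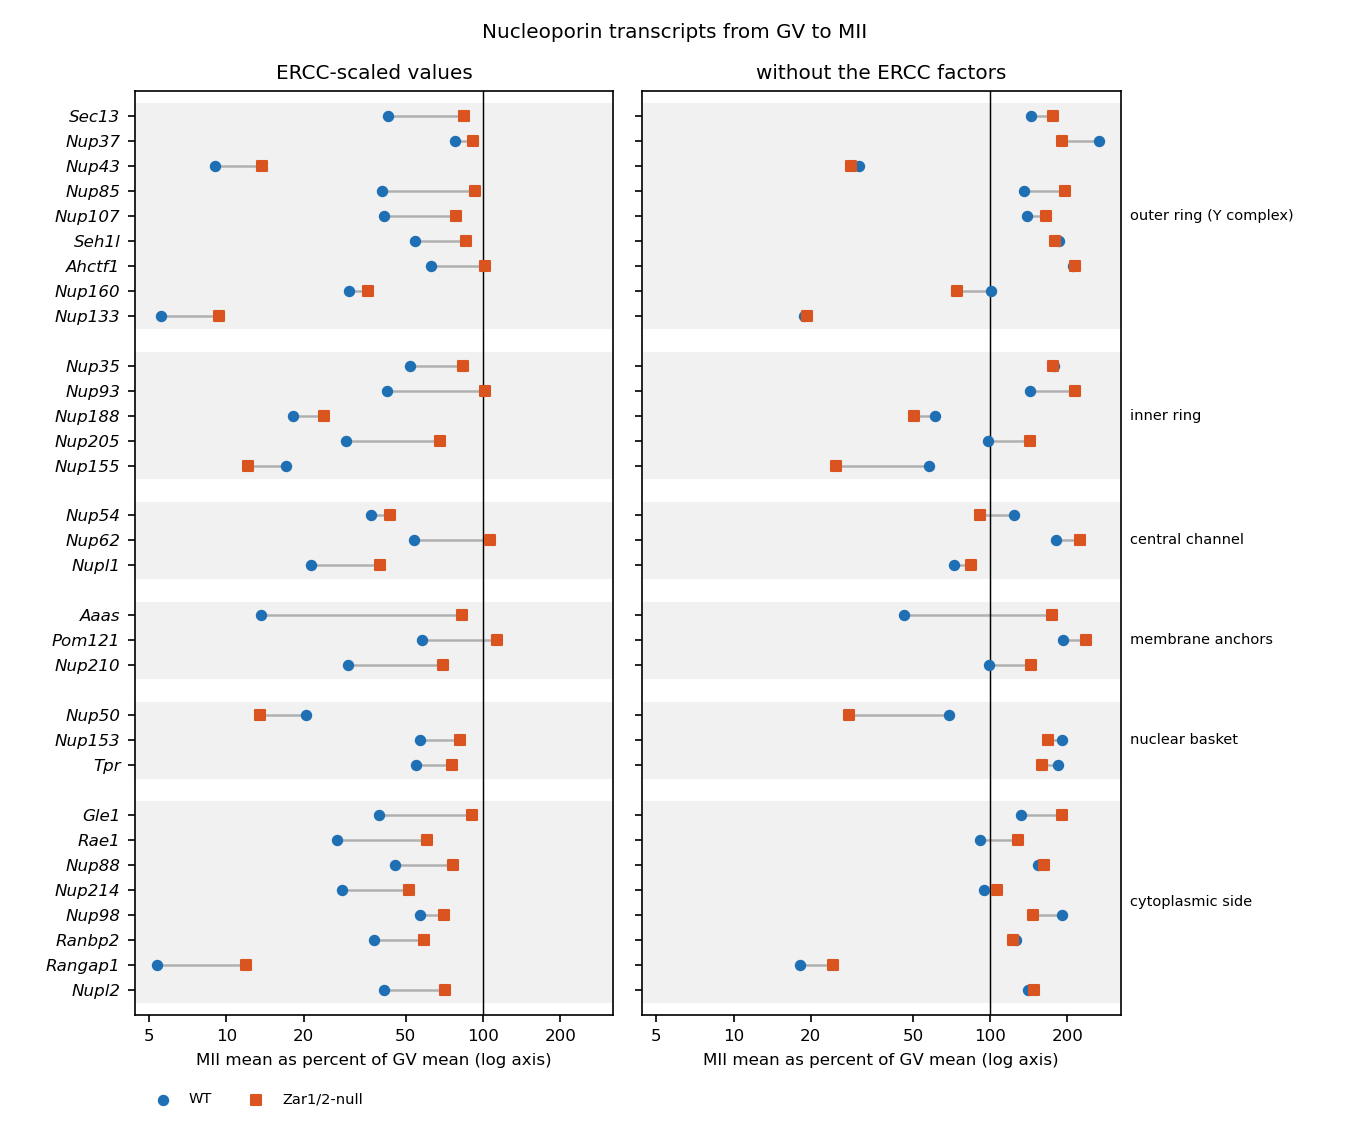
MII mean as percent of the GV mean (log axis) for each of the 31 genes, with WT as blue circles and null as orange squares, for the ERCC-scaled values (left) and without the ERCC factors (right). Nup43, Nup133 and Rangap1 are low in both panels. A factor multiplies all genes of a library alike, so the order of genes within a genotype is nearly fixed between panels. In the left panel nearly all null points lie to the right of WT, and in the right panel Aaas shows the widest gap.

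In null oocytes fewer members were called lower from GV to MII, 14 of 30, against 68.7% of tested genes, with none higher, against 0.209%, and a median log2 difference of -0.34 against -0.72 over all genes. The libraries were apart for 18 members that were lower and 1 that was higher at MII, against 84.6% and 1.23% of tested genes. When the factors were removed, 16 were higher and 6 lower, against 19.5% and 40.5% of tested genes. The 28 members kept a median of 76.3% of the null GV mean, against 36.6% over the 8951 genes. Nup43 (74.6 and 78.8 to 11.4 and 9.67 FPKM, -2.76 ± 0.19, adjusted p = 1.93e-07), Nup50 (13.6 and 15.1 to 1.92 and 1.95 FPKM, -2.39 ± 0.14, adjusted p = 6.73e-08) and Nup188 (5.50 and 7.76 to 1.62 and 1.57 FPKM, -1.54 ± 0.19, adjusted p = 2.34e-05) changed the most on the log2 scale. Nup155 left 12.2% (2.15 and 1.97 to 0.308 and 0.193 FPKM, -1.29 ± 0.12, adjusted p = 2.73e-06) and Nup133 left 9.33% of the null GV mean. Nup43, Nup50, Nup133, Nup155 and Rangap1 were called lower in the null under every scaling tried.

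The change from GV to MII differed between the genotypes for 14 of 30 members, all toward a smaller decline in the null, against 33.9% of tested genes in this direction and 0.643% in the other. These were Nup85, Nup107, Nup133, Sec13 and Ahctf1 of the outer ring, Nup93 and Nup205 of the inner ring, Nup62 and Nupl1 of the channel, Pom121 and Aaas at the membrane, and Nup214, Gle1 and Rae1 at the cytoplasmic side. None of the 3 basket genes was among them. The count was 9 without WT GV replicate 1, without WT MII replicate 1 or without null MII replicate 1. On the linear scale 26 of 28 members kept a larger share in the null, against 85.7% of tested genes, and the exceptions were Nup50 and Nup155. Without the ERCC factors 15 of 28 members did so, against 51.3%, and only Aaas was called with a smaller decline and Nup50 with a larger one.

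Some members were called between genotypes at GV and not at MII, and others at MII and not at GV. Nup85, of the first kind, was already lower in null growing oocytes. The change in its genotype difference from growing to GV oocytes was not called (-0.32, adjusted p = 0.352). Nup85 kept 40.2% in WT and 93.1% in the null, and its null GV values of 28.3 and 35.3 FPKM were close to the MII values of both genotypes, 28.3 to 29.7 FPKM (difference of the changes 1.19 ± 0.22, adjusted p = 0.00187). From GV to MII Sec13 followed the same course, with null GV values of 87.4 and 132 FPKM and null MII values of 99.0 and 85.2 FPKM (1.00 ± 0.28, adjusted p = 0.0188). Aaas by contrast overlapped between genotypes at GV and differed at MII, keeping 13.7% in WT and 82.5% in the null (2.44 ± 0.32, adjusted p = 0.000189). Gle1 kept 39.3% and 90.6% (1.19 ± 0.25, adjusted p = 0.0037), Nup93 42.4% and 102% (1.22 ± 0.24, adjusted p = 0.00283), and Rae1 26.9% and 60.7% (1.15 ± 0.25, adjusted p = 0.0056). At GV both null libraries of Nup93 and of Rae1 also lay below both WT libraries, without a call (log2 differences of -0.41 and -0.40). For Nup50 the shares were 20.5% in WT and 13.5% in the null (-0.35 ± 0.20, adjusted p = 0.196), and without the ERCC factors the difference of the changes was -1.18 (adjusted p = 0.0016). From growing to GV oocytes 2 of 30 members changed their genotype difference downward and 0 upward, against 11.3% and 2.58% of tested genes, namely Nup133 and Nupl2. Nupl2 changed its sign: it was higher in null growing oocytes and lower in null GV oocytes (1.34 and 1.017 against 0.565 and 0.764 FPKM), with a difference between those stages of -1.02 ± 0.20 (adjusted p = 0.00987).

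**Figure D4:**
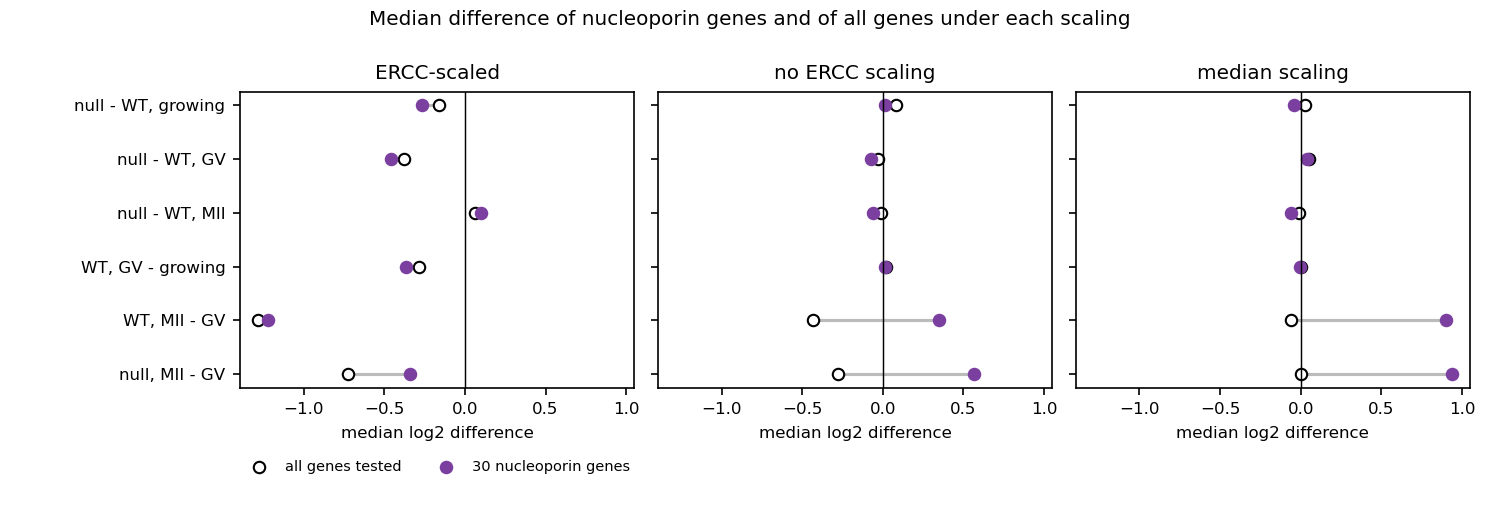
Median log2 difference of the 30 tested nucleoporin genes (filled) and of all 11502 tested genes (open) in 6 comparisons, with the ERCC factors, without them and after median scaling. The genotype comparisons lie close to the all-gene median in each panel, and from GV to MII the members lie above it by 0.06 in WT with the ERCC factors and by 0.78 without them.

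Genes outside the member list that work at or beside the pore were counted for comparison. The tested pore-associated genes included transport receptors, Ran regulators, SUMO proteases, export helicases and some membrane and nucleoporin-like proteins. Of these 16 genes, 5 were lower and none higher in null GV oocytes, against 40.6% and 2.83% of all tested genes. In null MII oocytes 4 were lower and 1 higher, against 10.3% and 21.5%, and in null growing oocytes 3 were lower and 2 higher, against 24.4% and 10.6%. In WT maturation 14 of 16 were lower, in null maturation 9, and 4 declined less in the null (Tmem48, Nxf1, Nxt1 and Pcid2), against 93.4%, 68.7% and 33.9% of tested genes. Tmem48 encodes NDC1, the membrane partner of aladin, and was the one pore-associated gene that was higher in null MII oocytes. Of 11 tested genes of the lamina and envelope, 5 were lower in null GV oocytes, against 40.6%, and 2 were higher (Lbr and Vrk1) and 1 lower (Ankle2) in null MII oocytes. With the ERCC factors 10 of 11 were lower after maturation in WT, 9 of 11 in the null, and 5 declined less in the null, against the same shares of 93.4%, 68.7% and 33.9%.

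Some read assignments are uncertain. The libraries do not keep strand, and 11.9% of the exon bases of Pom121 overlap Nsun5 on the opposite strand, as do 7.88% of those of Nup188 with Gm14471. Overlaps of other members were under 5% with any one gene. First-strand synthesis from oligo-dT means that a shorter poly(A) tail and fewer transcripts cannot be told apart in these values. The labels do not say whether the 2 libraries of a group came from separate females, so that the adjusted p-values measure the spread between libraries, which may be technical.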

How the data were processed

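RNA of 12 libraries of 10 oocytes each was amplified by Smart-seq2 with ERCC spike-ins, as the labels and methods state. The authors trimmed reads to 50 bp, aligned them to mm9 with TopHat2 2.1.1 and estimated FPKM with Cufflinks 2.2.1. They multiplied each library by its ERCC factor. The deposited values used here are these FPKM and not counts, so precision comes from the spread between libraries. This spread was estimated for each gene over all 12 libraries together. A member therefore has the same SE in every comparison of 2 groups, and its SE does not measure the spread of those groups alone. The factors were inferred here as the multipliers that return a library's values to the rounding of the original program. Their decimal position was set so that the total came nearest to that of WT growing libraries. That dividing by them returned 100% of values to this rounding follows from the search and is not a separate check. The study's listed ERCC percentages were not used to set the factors and need not give the same values. On average 33.5% of values were listed at 0. The members and gene lists were chosen with earlier results of these data known.

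Genes at 1 FPKM or more in at least 1 library (11502 of 23230) were tested as log2(FPKM + 1) with limma 3.58.1 in R 4.3.3, 1 term per group over all 12 libraries, a trended eBayes prior and Benjamini-Hochberg adjustment over all genes tested at 0.05. A fold change on this scale understates the change of low genes. An exact permutation test of 2 against 2 libraries could not go below p = 0.333. Differences between genotypes in the change between stages were tested as interaction terms. Every library's values are given for up to 4 called members with the largest change in each direction and for the most abundant member of each structural group. The median scaling used 12124 genes listed above 0 in every library. On simulated data for the MII comparison, 99.5% of 200 genes changed 6-fold were recovered among 11502 genes, with 12 unchanged genes called. The unchanged genes had their WT GV mean in every group. Smaller changes, such as those of most members here, were not simulated, so their recovery is unknown. Alternatives were the scaling, the pseudocount, the filter, the prior, the libraries fitted, a replicate block and leaving out each library. Growing oocytes are described as 13.5 days old in the labels and as 12 days old in the methods. Sequences and gene positions are from GENCODE M1 on mm9.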

Additional observations from a re-analysis of the deposited data

Results flagged for a closer look

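The size of the genotype difference changed between stages in 16 tests of a member, by an interaction term in limma with Benjamini-Hochberg adjustment over all tested genes. From GV to MII the log2 difference (null minus WT) moved upward in 14 members. In the outer ring it moved by 1.19 for Nup85, 1.00 for Sec13, 0.89 for Nup107, 0.81 for Nup133 and 0.64 for Ahctf1. In the inner ring and channel it moved by 1.22 for Nup93, 0.88 for Nup205, 0.94 for Nup62 and 0.80 for Nupl1. At the membrane it moved by 2.44 for Aaas and 0.87 for Pom121, and at the cytoplasmic side by 1.19 for Gle1, 1.15 for Rae1 and 0.82 for Nup214. Of all tested genes 33.9% were called in this direction. Aaas kept the call under all 21 alternatives, and the other 13 lost it without the ERCC factors and after median scaling.

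From growing to GV oocytes the difference moved downward in Nup133 (-0.94) and Nupl2 (-1.02), against 11.3% of tested genes. Nupl2 lost the call after median scaling (adjusted p = 0.142), and Nup133 under both scalings without the ERCC factors (adjusted p = 0.0567 and 0.0722). All of these interactions share libraries with the comparisons within stages. Groups of 2 libraries are too small for a test of single outlying samples.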

How the results depend on the processing

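Counts of called members depended most on the ERCC scaling. Without the ERCC factors, 2 members were called higher and 1 lower in null growing oocytes, 4 lower at GV, 0 lower from WT growing to GV, 14 higher and 7 lower in WT maturation, 16 higher and 6 lower in null maturation, 4 higher and 6 lower at MII under either scaling, 1 lower in the interaction of growth, and 1 higher and 1 lower in that of maturation; 1 member passed the 3-fold rule downward at MII and 0 the 10-fold rule in WT. After median scaling the counts were 1 lower in growing oocytes, 1 higher and 2 lower at GV, 0 lower in WT growth, 22 higher and 4 lower in WT maturation, 21 higher and 5 lower in null maturation, 0 lower in the interaction of growth, 1 higher and 2 lower in that of maturation, and 0 by the 10-fold rule in WT. No called value of a member changed sign under the other alternatives. Taking only genes at a mean of 5 FPKM or more left fewer members to test, with 0 higher in growing oocytes, 9 lower in null maturation and 0 lower in the interaction of growth. Fitting only the libraries compared gave 8 lower at GV, 7 lower in WT growth and 1 lower in the interaction of growth. A floor of 0.1 FPKM gave 1 member lower at MII by the 3-fold rule, and 3 in WT and 1 in the null by the 10-fold rule.

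Over all tested members and the 8 comparisons, 36 differences called in either fit changed sign without the ERCC factors and 51 after median scaling. Among the members whose values are given for a comparison, those that turned without the ERCC factors were Nup50 at GV (0.041), Sec13 (0.53), Nup35 (0.82), Nup54 (0.31) and Gle1 (0.39) in WT maturation, and Sec13 (0.83), Nup35 (0.83), Aaas (0.83) and Gle1 (0.93) in null maturation. After median scaling those members were Nup54 (0.043) and Nup50 (0.15) at GV, Sec13 (1.09), Nup35 (1.37), Nup54 (0.86), Nup50 (0.025) and Gle1 (0.94) in WT maturation, Sec13 (1.27), Nup35 (1.27), Nup54 (0.31), Aaas (1.26) and Gle1 (1.36) in null maturation, and Ahctf1 (-0.089) in the interaction of maturation. Removing the factors moves the median of all genes, from -1.28 to -0.43 in WT maturation and to -0.06 after median scaling. The cause of the difference between scalings was not tested further.

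Leaving out 1 library at a time gave 4 to 7 members lower in growing oocytes, 7 to 18 lower at GV, 3 to 7 higher and 1 to 4 lower at MII, 1 to 14 lower in WT growth, 28 to 29 lower in WT maturation, 11 to 15 lower in null maturation, 9 to 14 higher in the interaction of maturation and 0 to 1 by the 10-fold rule in WT. The remaining library of such a group is assumed to vary like the others. Libraries of the same replicate number were scaled to the same WT growing library. Their deviations correlated across genes from -0.12 to 0.16 over 15 pairs of groups, with 4 of them over 0.1. Such a correlation does not register an offset shared by all genes, so it cannot decide whether replicate numbers pair the samples. With a replicate block 18 members were lower at GV, 7 in growing oocytes and 30 in WT maturation. The study lists total reads for each library, and the part of depth in the precision of low genes was not tested.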
